A study of Mus musculus with 48 samples.

Results

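Maz and 7 related genes of DNA looping and G-rich promoter binding were examined in a mouse model of the 16p11.2 deletion. The 8 genes were taken by symbol from a count table of 47069 genes, and each mapped to 1 Ensembl identifier with counts. Maz lies inside the deleted interval, whereas Patz1, Vezf1, Ctcf, Rad21, Smc1a, Smc3 and Sp1 lie on other chromosomes. RNA was sequenced from cortex, striatum and cerebellum of 8 mice labelled 16p11.2 Deletion, which carry a deletion in the syntenic band 7qF3, and of 8 wild-type mice. Each animal gave 1 library per tissue. Tissue and genotype thus define 6 groups of 8 libraries, with 4 per sex. All animals were of the mixed strain C57BL/6N:129Sv, and no other allele or treatment is named. The labels do not state the zygosity of the deletion. Their age field holds a date instead of an age, with 1 date for all males and another for all females, which leaves sex confounded with date. The tissues are bulk dissections, in which fewer expressing cells and less RNA per cell cannot be told apart.

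MAZ is a zinc finger transcription factor that binds G-rich promoter sequence and has been described as working beside CTCF at chromatin boundaries. PATZ1 and VEZF1 are zinc finger factors that recognise related G-rich sequence, and SP1 binds the GC box of many housekeeping promoters. CTCF marks the anchors of chromatin loops, where it halts the ring-shaped cohesin complex, whose core holds SMC1A and SMC3 closed by the kleisin RAD21. In neurons, loops of this kind bring distal enhancers to promoters, and genes of this machinery are mutated in cohesin-related developmental disorders.

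Maz (ENSMUSG00000030678) spans chr7:127022130-127027037 on the minus strand of GRCm38 in the GENCODE vM21 annotation, between Kif22 and Prrt2, and no annotated gene overlaps it. Its exons cover 2976 bases. The RefSeq promoter table of GRCm38.p6 holds 300-base windows around the transcription start for 7 of the 8 genes, with 2 windows each for Maz and Patz1. The G-rich core of the MAZ site, GGGAGGG or its reverse complement CCCTCCC, was searched on both strands, counting overlapping matches, because it is the sequence through which MAZ and its relatives meet promoters. It occurred 4 times in the Maz window at the annotated start, 2 times in each of the Ctcf and Sp1 windows, 2 times in the other Maz window, 1 time in 1 of the Patz1 windows, and not in the Vezf1, Smc1a and Smc3 windows. Of all 32851 windows in the table, 7211 held the core at least 1 time and 0.624% held it 4 or more times. The GC box core GGGCGG, searched in the same way, was present in at least 1 window of all 7 genes and in 35.7% of all windows. The 4 windows printed are those of the deleted gene, of the boundary factor, of the GC box factor and, for contrast, of a cohesin subunit with no match. Capitals mark the GGGAGGG or CCCTCCC matches, and each window reads along the gene's strand. They lie at chr7:127026956-127027255 on the minus strand (Maz), chr8:105636288-105636587 on the plus strand (Ctcf), chr15:102406066-102406365 on the plus strand (Sp1) and chrX:152016178-152016477 on the plus strand (Smc1a).
Maz: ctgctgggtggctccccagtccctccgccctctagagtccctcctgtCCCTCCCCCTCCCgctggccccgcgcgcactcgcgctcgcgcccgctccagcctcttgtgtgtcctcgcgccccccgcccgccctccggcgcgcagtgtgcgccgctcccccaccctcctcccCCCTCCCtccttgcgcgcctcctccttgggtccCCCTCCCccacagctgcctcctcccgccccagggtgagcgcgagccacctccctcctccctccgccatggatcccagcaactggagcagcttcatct
Ctcf: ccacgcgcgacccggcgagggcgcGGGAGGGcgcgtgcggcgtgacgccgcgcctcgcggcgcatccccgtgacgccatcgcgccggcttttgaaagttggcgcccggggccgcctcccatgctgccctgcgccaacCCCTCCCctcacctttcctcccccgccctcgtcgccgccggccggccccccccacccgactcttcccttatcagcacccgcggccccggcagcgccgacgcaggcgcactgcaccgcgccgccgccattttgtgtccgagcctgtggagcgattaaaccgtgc
Sp1: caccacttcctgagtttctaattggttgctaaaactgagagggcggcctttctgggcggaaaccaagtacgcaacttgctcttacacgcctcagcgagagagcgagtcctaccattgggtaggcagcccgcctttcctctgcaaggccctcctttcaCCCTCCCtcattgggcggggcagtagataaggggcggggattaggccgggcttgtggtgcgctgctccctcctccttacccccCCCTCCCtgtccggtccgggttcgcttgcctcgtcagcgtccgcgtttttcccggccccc
Smc1a: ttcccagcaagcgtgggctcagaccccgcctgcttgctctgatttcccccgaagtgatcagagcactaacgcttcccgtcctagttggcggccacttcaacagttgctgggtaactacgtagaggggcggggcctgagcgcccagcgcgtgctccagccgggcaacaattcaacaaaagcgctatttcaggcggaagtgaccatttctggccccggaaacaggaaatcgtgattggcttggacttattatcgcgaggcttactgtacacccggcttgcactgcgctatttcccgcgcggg
A match describes the letters only and was not taken as a binding site.

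Gene counts ran from 29244745 to 60751792 per library. Cortex and cerebellum carried their own markers, with mean log2 CPM (read counts scaled to library size) of 5.56 to 6.79 for cortical neuron markers in cortex and of 5.68 to 8.43 for cerebellar markers in cerebellum. Striatal neuron markers set striatum little apart from cortex. Their means in striatum and cortex were 6.28 and 5.87 in wild-type mice, and 6.92 and 6.84 in deletion mice. Striatal neuron markers also reached 8.12 in cortex libraries, and they exceeded the cortical ones in 4 of the 8 wild-type and 6 of the 8 deletion cortex libraries. In 2 of the 8 wild-type striatal libraries the cortical markers exceeded the striatal ones, and they reached 5.86 there, within the range of cortex. Striatal libraries ranged from 4.16 to 9.19 for striatal neuron markers, and in 1 of them, from deletion animal D810, the thalamic markers exceeded the striatal ones. The cerebellar library of deletion animal D809 stood apart, with cerebellar markers at 5.68 against at least 7.39 in the wild-type cerebellum and the highest oligodendrocyte markers of the cerebellar libraries, 10.7. No marker list differed between genotypes at an adjusted p under 0.05 (exact permutation tests, Benjamini-Hochberg adjustment over 33 tests).

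Maz was about halved in all 3 tissues of deletion mice, which also checks the genotype labels. In cortex, Maz ran from 172 to 257 CPM in wild-type libraries, with a median of 213. The deletion libraries ran from 70.7 to 123 CPM, with a median of 98.8. The lowest wild-type library thus lay 40.3% above the highest deletion library, and the groups did not overlap. Means were 215 ± 31.9 CPM in wild type and 96.2 ± 17.3 CPM in deletion mice (SD, n = 8 each). The log2 fold change was -1.16 ± 0.13 (SE), which leaves 44.7% of the wild-type level with a 95% confidence interval of 37.1 to 53.9% (edgeR quasi-likelihood test, Benjamini-Hochberg adjusted p = 2.17e-04).

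In striatum, wild-type Maz ran from 128 to 225 CPM with a median of 172, and the deletion libraries from 67.4 to 101 CPM with a median of 88.9. The gap between the groups was 25.8%, so that all 8 deletion libraries again lay below all 8 wild-type libraries. The log2 fold change was -1.02 ± 0.13, or 49.4% of wild type (edgeR adjusted p = 9.07e-04). In cerebellum, wild-type Maz ran from 202 to 340 CPM with a median of 274, and deletion Maz from 90.7 to 167 CPM with a median of 146. The gap was 20.8%, and the 2 lowest deletion libraries, at 90.7 and 96.2 CPM, came from animals D809 and D801. The log2 fold change was -1.07 ± 0.15, or 47.5% of wild type (edgeR adjusted p = 0.00458), and -1.01 ± 0.14 without the aberrant library of animal D809 (adjusted p = 0.00606). Across all genes tested, 0.119% were called lower at an adjusted p under 0.05 in cortex, 0.116% in striatum and 0.126% in cerebellum. Groups without overlap were seen in 0.119, 0.11 and 0.12% of genes in the same order.

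**Figure D1:**
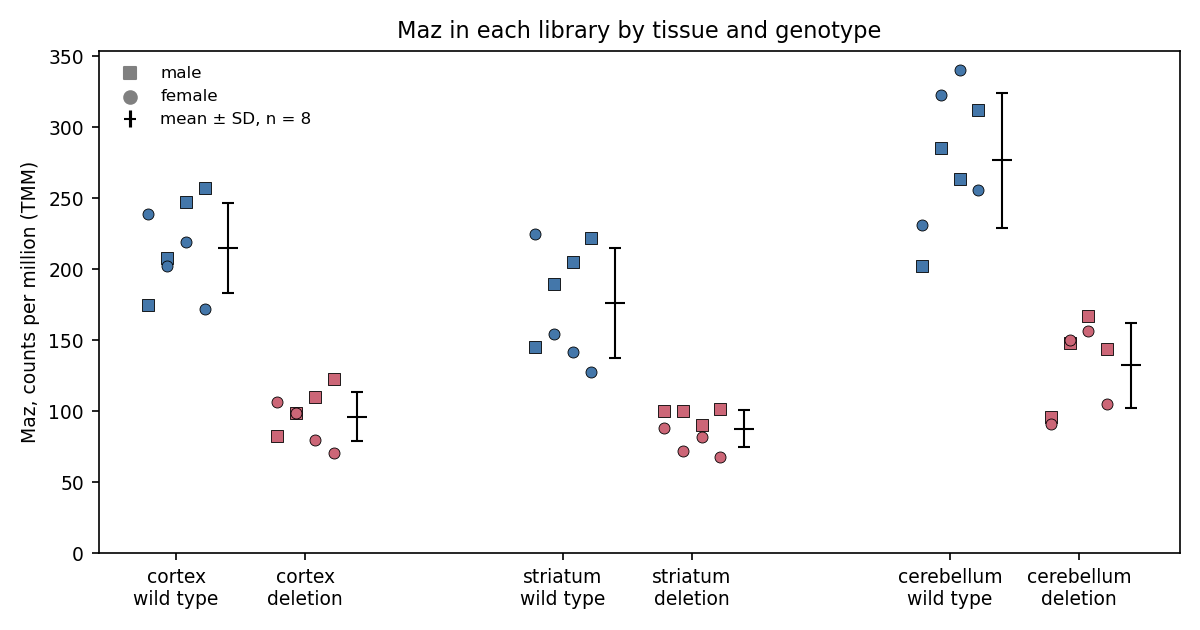
Maz in CPM after TMM scaling (y axis, from 0) in each library, by tissue and genotype (x axis), with squares for males, circles for females and bars for the mean ± SD of 8 libraries. In each tissue the 8 deletion libraries lie below the 8 wild-type libraries.

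The decrease of Maz was compared between tissues and sexes. Its log2 fold change differed by 0.16 ± 0.19 between striatum and cortex (95% interval -0.24 to 0.55), by 0.09 ± 0.19 between cerebellum and cortex and by -0.07 ± 0.19 between cerebellum and striatum. None of these differences passed (edgeR interaction contrasts, unadjusted p = 0.428, 0.650 and 0.733). Of 18531 genes tested, 0 were called in any of the 3 contrasts, and 1.85, 1.26 and 1.69% had an unadjusted p under 0.05. That fit did not pair the tissues of an animal. With a term for each animal, 0 genes, and thus 0 members, were called in each contrast. The effect in males minus that in females was 0.15 ± 0.26 in cortex, 0.12 ± 0.25 in striatum and 0.25 ± 0.31 in cerebellum, with unadjusted p of 0.577, 0.636 and 0.433 in edgeR. In each tissue the male decrease was thus the smaller in point estimate, with intervals that include 0, and 0 genes were called (1.52, 1.1 and 0.558% at an unadjusted p under 0.05). With 4 animals per genotype the single-sex fits did not pass the genome-wide threshold for Maz, although its fold change was of like size (-0.95 to -1.24).

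Maz was then set against the genes deleted with it. Among the interval genes that passed the filter on low counts, Maz ranked 4 of 21 from the largest decrease in cortex, 13 of 22 in striatum and 10 of 23 in cerebellum. The interval medians were -1.08, -1.04 and -1.02. The log2 CPM of Maz minus the mean of the other interval genes was 2.21 ± 0.10 in wild-type and 2.11 ± 0.10 in deletion cortex, a difference of -0.10 (exact permutation test, 2-sided, p = 0.0741, adjusted p = 0.222 over 3 tissues). The differences in striatum and cerebellum were 0.03 and -0.10 (exact permutation p = 0.782 and 0.465). Against the interval genes that overlap no other gene, 6 in cortex, the difference there was -0.18 (exact permutation adjusted p = 0.00839), so that the call for cortex depends on the genes of reference. These permutation tests held no term for the library length score described below, which Maz followed inversely in cortex. The part of that score in the difference was not tested.

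**Figure D2:**
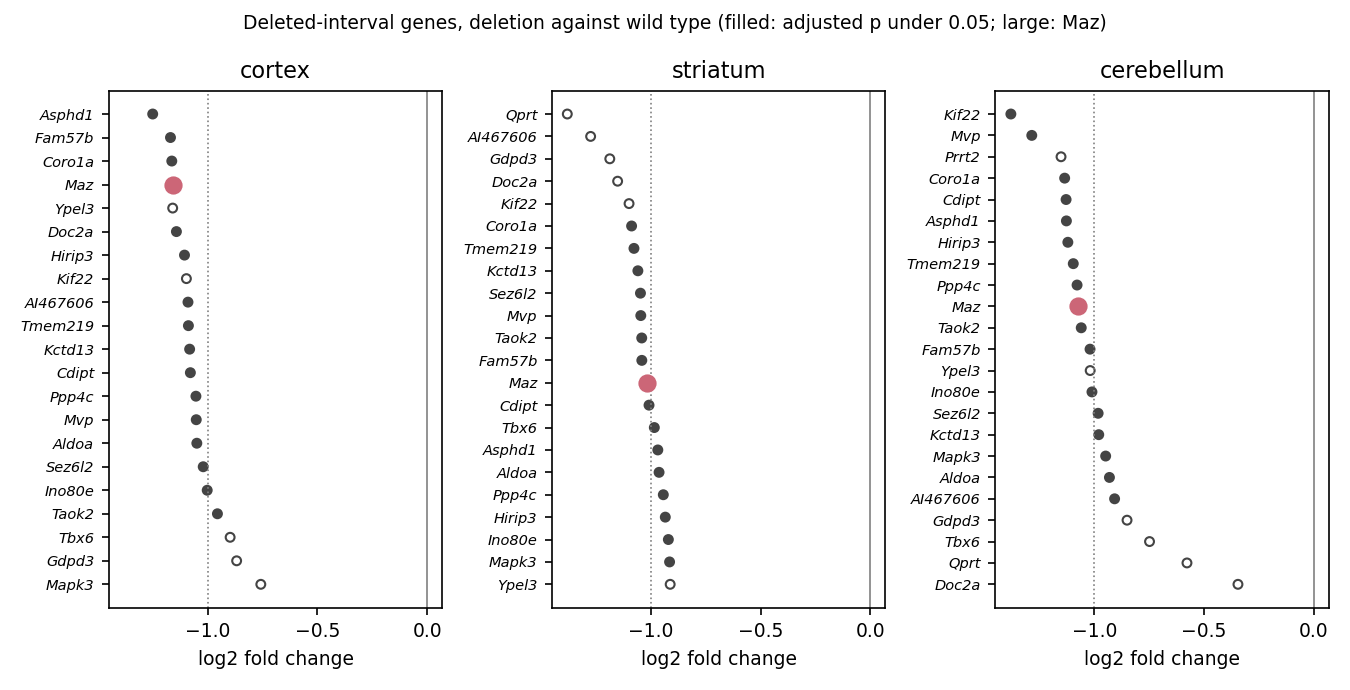
Log2 fold change of each tested interval gene (x axis; dotted line at -1) in cortex, striatum and cerebellum, ordered from the largest decrease, with filled points for an adjusted p under 0.05 and a large point for Maz. Maz sits at -1.16, -1.02 and -1.07, within the run of its deleted neighbours.

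None of the 7 other genes passed the test for a difference with the deletion in any tissue. Their median log2 fold change was 0.07 in cortex, -0.06 in striatum and -0.10 in cerebellum, beside medians of 0.00, -0.01 and 0.00 over all genes tested. edgeR called 0 of 7 in each tissue, and 0 of 7 had an unadjusted p under 0.05, where 2.03, 3.32 and 2.08% of all genes did. DESeq2 also called none of the 7.

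Among the zinc finger relatives of MAZ, Patz1, also known as MAZ-related factor, had the narrower intervals. In cerebellum it ran from 32.3 to 45.1 CPM in wild type (median 42.6) and from 27.5 to 40.8 CPM in deletion mice (median 38.1). The groups overlapped, and the log2 fold change was -0.16 ± 0.09, or 89.6% of wild type with a 95% interval of 78.8 to 102% (edgeR unadjusted p = 0.0878). Without animal D809, which held the lowest value, the estimate was -0.11 ± 0.07. In cortex Patz1 stood at 100% of wild type with an interval of 90.9 to 111%, and in striatum at 97.3% with an interval of 87.2 to 108%. Vezf1, a factor first studied in vessel development, was at 105, 100 and 96.6% of wild type in cortex, striatum and cerebellum, with intervals that ran from 80.5 to 123% over the 3 tissues. Sp1, the GC box factor, was at 115% in cortex, 91.3% in striatum and 91.8% in cerebellum. Its intervals were the widest of the 8 genes, from 65.7 to 159% over the tissues, and these limits bound what could be detected here.

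Ctcf, whose product anchors loops, ran from 46.7 to 73.3 CPM in wild-type cortex (median 55.7) and from 44.1 to 77.2 CPM in deletion cortex (median 61.1), and the groups overlapped. Its level was 104% of wild type in cortex, 95.7% in striatum and 93.1% in cerebellum, and the 3 intervals together ran from 73.0 to 125%. Of the cohesin ring, Smc1a was the most tightly bounded member. It ran from 102 to 121 CPM in wild-type striatum (median 112) and from 98.3 to 111 CPM in deletion striatum (median 106). In edgeR, the log2 fold changes of Smc1a were -0.05 ± 0.06, -0.10 ± 0.06 and -0.09 ± 0.07 in cortex, striatum and cerebellum, with intervals from 84.1 to 105% of wild type over the tissues. Smc3 was at 107, 95.6 and 94.1%, and Rad21 at 105, 93.1 and 90.2%, with Rad21 intervals that ran from 66.6 to 142% over the tissues. In cerebellum Smc3 stood at 0.00 ± 0.12 without the library of animal D809, in place of -0.09 ± 0.15, and Ctcf at -0.01 ± 0.14 in place of -0.10 ± 0.17. The same fit gave -0.07 for Rad21, -0.06 for Smc1a, -0.04 for Sp1 and 0.01 for Vezf1. None of the 7 genes differed in its deletion effect between tissues or sexes in edgeR (0 called, 0 with an unadjusted p under 0.05).

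**Figure D3:**
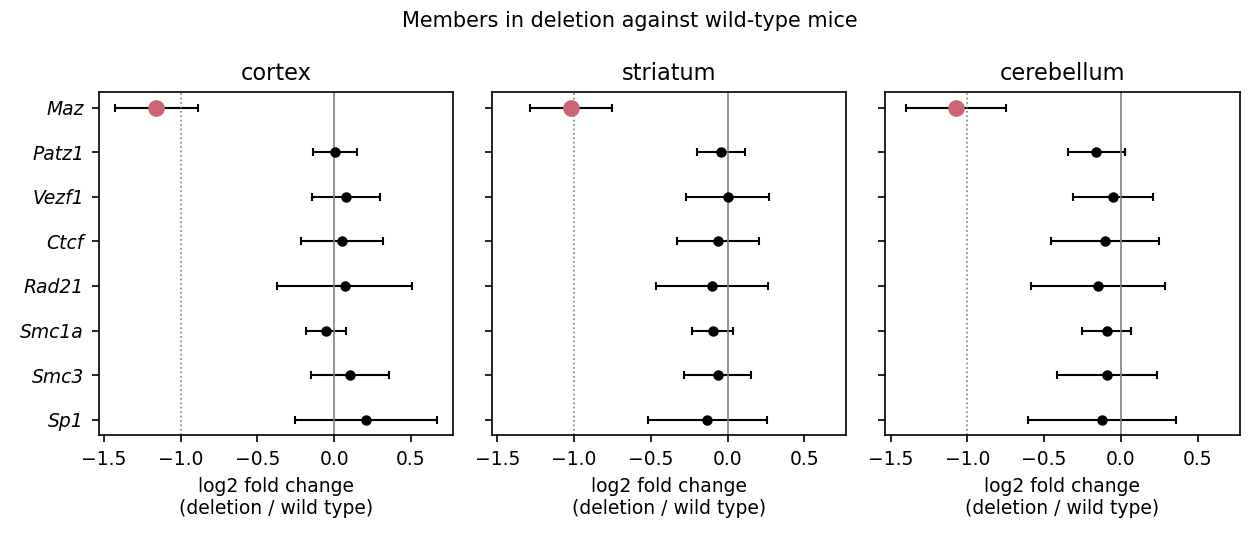
Log2 fold change of deletion over wild type (x axis, with 95% confidence intervals; dotted line at -1) for the 8 genes in each tissue, 8 libraries per genotype. Large points mark an adjusted p under 0.05, which was reached by Maz alone among the 8 genes.

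The wide intervals of several members went with a common pattern among libraries. The coefficient of variation within a group reached 39.5% for Sp1 and was 24.3 to 36.7% for Rad21, against 3.30 to 9.26% for Smc1a and 6.10 to 11.3% for Patz1. A length score was computed for each library as the slope of log2 CPM on log2 exon length over 13878 protein-coding genes, with each gene centred on its mean in the tissue. It ranged from -0.34 to 0.41 across the libraries. The score was drawn from these same libraries, and the share of all genes that follow it closely was not computed. The relations below are therefore not shown to be particular to these members. Within tissues (16 libraries each, deviations from the genotype means), Sp1 followed the score with Pearson r of 0.984 in cortex, 0.974 in striatum and 0.977 in cerebellum (Spearman rho 0.956, 0.962 and 0.962). Rad21, Ctcf, Smc3 and Vezf1 also followed it, with r from 0.822 to 0.969. Patz1 followed it less closely (r = 0.595, 0.213 and 0.662). Maz ran opposite in cortex (r = -0.956, rho = -0.924) and striatum (r = -0.883, rho = -0.918). In cerebellum the relation of Maz was -0.380 over the 16 libraries (permutation p = 0.147), and 0.05 without the 2 farthest from the median score. Those 2, from animals W805 and D801, had the highest scores, with Maz at 202 and 96.2 CPM. The 2 cerebellar libraries of lowest score, from animals D809 and W813, held Maz at 90.7 and 231 CPM. In all 4 libraries Maz lay below its group mean, 132 CPM in deletion and 277 CPM in wild type. The libraries of D809 and W813 also had the lowest cerebellar markers (5.68 and 7.39) and the highest oligodendrocyte markers (10.7 and 10.4) of the tissue. Their part in the relation was not tested. Smc1a had small correlations with the score (r = -0.046, -0.179 and 0.213). Of the 135 relations computed, those of Sp1 in all 3 tissues and of Maz in cortex and striatum had a permutation p of 1e-05, the smallest that 100000 permutations can give. Without the 2 farthest libraries, r was -0.934 and -0.871 for Maz and at least 0.957 for Sp1.

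A score built in the same way on the GC content of transcripts was nearly the inverse of the length score (r = -0.993, -0.978 and -0.981), so length and GC content cannot be told apart here. The longest coding transcript of Maz has 63.6% GC, more than 99.0% of 21877 coding genes, whereas the other 7 genes have 42.3 to 56.9%. In cortex, striatum and cerebellum, Maz had r of 0.954, 0.877 and 0.439 with the GC score. Patz1, at 56.9% GC, had r of -0.544, -0.093 and -0.601, and Smc1a, at 46.9%, had 0.053, 0.191 and -0.139. The part of a gene's own GC content in these relations was not tested. The length score did not differ between genotypes (exact permutation p = 0.480, 0.789 and 0.853 in cortex, striatum and cerebellum).

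With the score as a covariate, an analysis added after the data were seen, the Maz decrease was -1.08 ± 0.04 in cortex (edgeR adjusted p = 2.38e-10), -1.03 ± 0.07 in striatum (adjusted p = 4.37e-07) and -1.09 ± 0.13 in cerebellum (adjusted p = 5.66e-04). In cortex its SE was thus 3.28 times smaller than without the score. The SE of Sp1 fell from 0.22 to 0.05 in cortex, and its estimate from 0.21 to 0.01. The 7 other genes then lay between -0.12 and 0.01 in cortex, -0.10 and 0.06 in striatum and -0.15 and -0.03 in cerebellum, and edgeR still called 0 of them. In these fits 0.148, 0.151 and 0.144% of all genes were called lower in cortex, striatum and cerebellum. Before adjustment, Smc1a in striatum (-0.10 ± 0.05, edgeR adjusted p = 0.591) and Patz1 in cerebellum (-0.15 ± 0.07) had an unadjusted p under 0.05. That share of all genes was 5.02% in cortex, 8.41% in striatum and 6.98% in cerebellum.

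**Figure D4:**
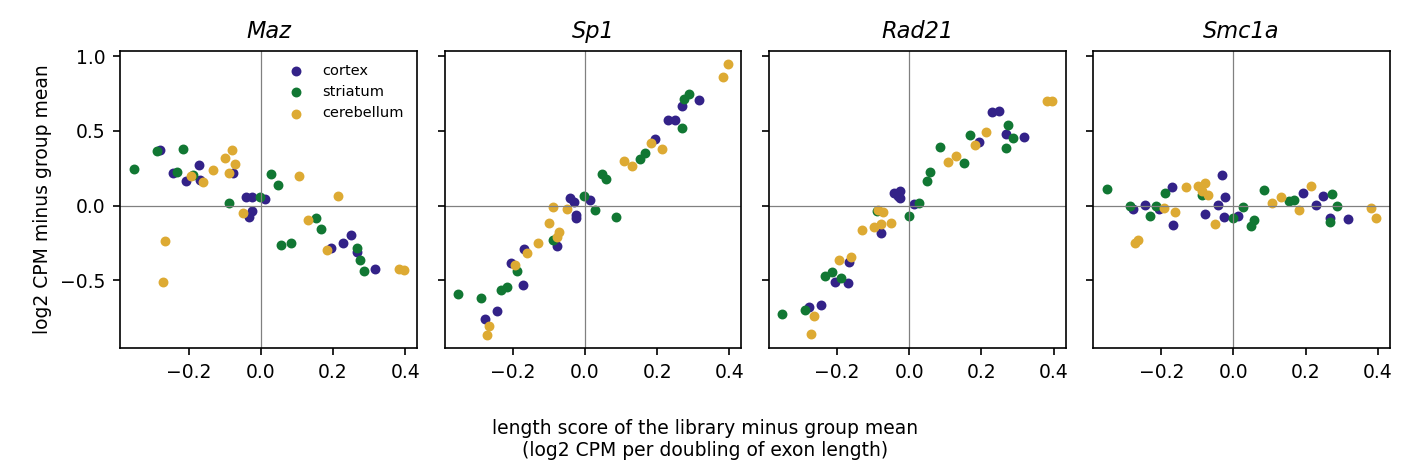
Deviation of log2 CPM from the group mean (y axis) against the deviation of the library's length score from the group mean (x axis) for Maz, Sp1, Rad21 and Smc1a, with 16 libraries per tissue. Sp1 and Rad21 rise with the score in each tissue, Maz runs opposite in cortex and striatum, and Smc1a is flat.

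The levels of the 8 genes without the deletion were compared between genes as CPM per kb of exon. Wild-type cortex held Maz at 72.2 ± 10.7, well above the rest, then Rad21 with libraries up to 27.2, Smc1a at 19.7 ± 1.68, Ctcf at 11.9 ± 1.88, Smc3 at 8.96 ± 1.23, Vezf1 at 6.87 ± 0.81, Patz1 at 5.09 ± 0.44 and Sp1 at 2.25 ± 0.65 (SD, n = 8). By mean the order was the same in striatum and cerebellum, although in cerebellum Rad21 at 30.8 ± 10.2 and Smc1a at 30.7 ± 2.84 were nearly equal. In cortex the lowest Maz library, at 57.8, lay above the highest Rad21 library, at 27.2, and the lowest Patz1 library, at 4.55, above the highest Sp1 library, at 3.46. The Smc1a range, 17.9 to 22.6, lay within that of Rad21 and above that of Ctcf, and the neighbours Ctcf and Smc3, Smc3 and Vezf1, and Vezf1 and Patz1 overlapped in range. In deletion cortex Maz remained first by mean on this scale, at 32.3 ± 5.82, against 21.1 ± 7.77 for Rad21. In the cortex libraries of animals D801, D811 and D812, Rad21 lay above Maz (30.7 against 27.8, 30.6 against 26.8 and 27.3 against 23.7). In the other deletion cortex libraries Maz was the higher.

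**Figure D5:**
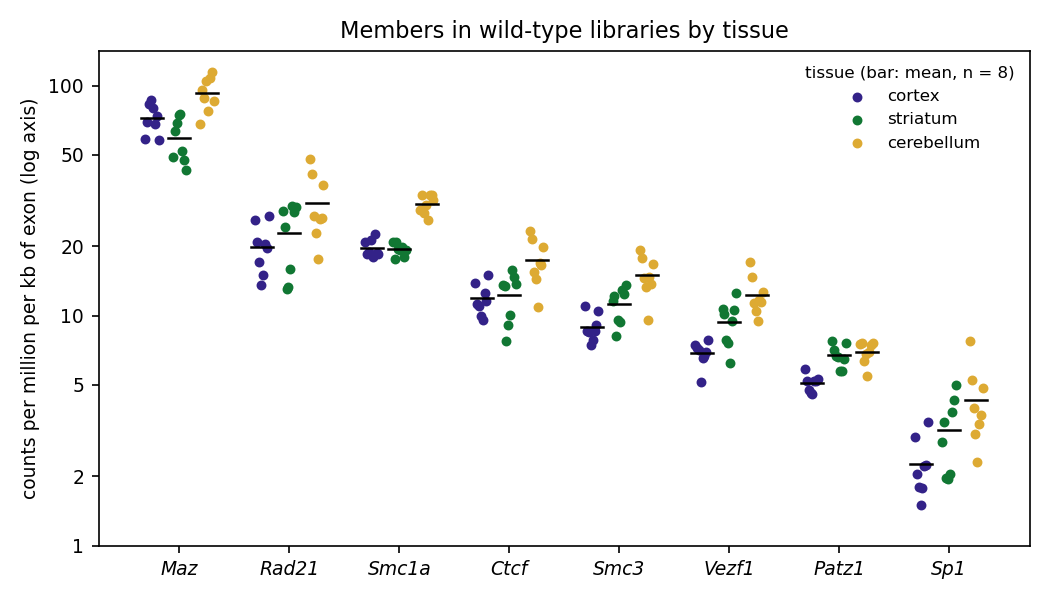
Level of each gene in CPM per kb of exon (y axis, log scale) in the 24 wild-type libraries, by gene (x axis) and tissue (colour), with bars for the mean of 8 libraries. Maz is highest and Sp1 lowest by mean in every tissue, and the cerebellar means lie above the cortical means for all 8 genes.

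All 8 genes were higher in wild-type cerebellum than in wild-type cortex, where 24.2% of the 17633 genes tested were called higher. In edgeR Sp1 rose most (log2 fold change 0.93 ± 0.24, adjusted p = 0.00238), followed by Vezf1 (0.84 ± 0.13, adjusted p = 9.79e-06) and the cohesin subunit Smc3 (0.73 ± 0.12, adjusted p = 2.45e-05). Smc1a rose by 0.63 ± 0.07, Rad21 by 0.62 ± 0.21, Ctcf by 0.55 ± 0.15, Patz1 by 0.45 ± 0.08 and Maz by 0.36 ± 0.14 (edgeR adjusted p = 0.0361 for Maz and lower for the others). Smc1a ran from 104 to 130 CPM in cortex (median 108) and from 150 to 193 CPM in cerebellum (median 179). Vezf1 ran from 23.7 to 36.1 CPM in cortex and from 43.7 to 78.9 CPM in cerebellum. The ranges of the tissues did not overlap for these genes. With a term for each animal, which pairs the tissues of a mouse, all 8 were called again, beside 29% of all genes, and Maz stood at 0.37 ± 0.10 (edgeR adjusted p = 0.00517). Without that term the call for Maz was lost without wild-type animal W806, W814, W815 or W816 (0.31 to 0.36, edgeR adjusted p = 0.0652 to 0.111), and that for Rad21 was lost without animal W806 (0.57 ± 0.24, adjusted p = 0.0557). In an analysis added after the data were seen, the 4 cortex and 2 striatal wild-type libraries in which the neuron markers of the other forebrain tissue exceeded their own were left out. Maz then stood at 0.21 ± 0.16 (adjusted p = 0.315), and the 7 other genes stayed called. In deletion animals, where 24.8% of genes were called higher, Maz rose by 0.46 ± 0.13 from cortex to cerebellum (adjusted p = 0.00493), and 7 of the 8 genes were called higher. There Rad21 was the exception, at 0.43 ± 0.21 (adjusted p = 0.104).

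Between wild-type cerebellum and striatum, 5 of the 8 genes were called higher in cerebellum in edgeR, beside 22.4% of all genes. These were Smc1a (0.65 ± 0.07), Maz (0.65 ± 0.14, adjusted p = 4.56e-04), Ctcf (0.51 ± 0.15), Smc3 (0.41 ± 0.12) and Vezf1 (0.39 ± 0.13). Patz1 stood at 0.05 ± 0.08, with striatal and cerebellar medians of 39.3 and 42.6 CPM. With a term for each animal, Rad21 (0.44 ± 0.12, adjusted p = 0.00466) and Sp1 (0.43 ± 0.16, adjusted p = 0.0264) were called as well, in a fit that called 27.5% of all genes higher and 9948 genes in either direction, against 8456 without the term. Without the wild-type forebrain libraries of mixed markers, Vezf1 was at 0.34 ± 0.14 (adjusted p = 0.0567) and the other 4 stayed called. In deletion animals 5 of the 8 were called higher, beside 22.5% of all genes.

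Between wild-type striatum and cortex, Patz1 (0.40 ± 0.08, adjusted p = 9.27e-04) and Vezf1 (0.44 ± 0.13, adjusted p = 0.0178) were called higher in striatum, where 9.95% of all genes were. Patz1 rose from a median of 30.6 CPM (range 26.9 to 34.8) to 39.3 CPM (range 33.8 to 45.9), and the ranges overlapped at their ends. Vezf1 went from 32.2 to 45.2 CPM by median, and its call was lost without animal W814 or W815 (adjusted p = 0.0512 and 0.0547). In deletion animals both were called too, at 0.34 ± 0.07 and 0.37 ± 0.13, beside 9.16% of all genes. With a term for each animal, 5 members were called, since Smc3 (0.32 ± 0.09, adjusted p = 0.0104), Sp1 (0.47 ± 0.16, adjusted p = 0.0301) and, in the direction of lower striatal levels, Maz (-0.30 ± 0.10, adjusted p = 0.0350) passed as well. The fit with the animal term called 5356 genes, against 3283 without it, with 15.6% of all genes higher and 14.8% lower. Without the libraries of mixed markers and without the animal term, Patz1 (0.51 ± 0.11, adjusted p = 0.00384) and Vezf1 (0.58 ± 0.17, adjusted p = 0.0227) stayed called, and Maz was at -0.49 ± 0.17 (edgeR adjusted p = 0.0524). In the fit of all wild-type libraries without the animal term, 8.67% of all genes were called lower in striatum, and Maz was not (adjusted p = 0.151). Maz was thus the single member called lower in striatum, and of the fits run only in that with the animal term.

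Males and females were also compared, with the date of the labels as a shared difference. No member was called in any tissue in edgeR, beside 0.0356, 0.134 and 0.042% of all genes called. In cortex and cerebellum 0 of the 8 genes had an unadjusted p under 0.05, beside 2.67 and 5.88% of all genes. In striatum 4 of the 8 did, as did 32.9% of all genes. In striatum Maz was higher in males by 0.31 ± 0.12, and Sp1, Rad21 and Smc3 lower by -0.51 ± 0.18, -0.43 ± 0.17 and -0.25 ± 0.10 (edgeR adjusted p = 0.112, 0.0950, 0.113 and 0.113). The length scores of the striatal libraries ran from -0.337 to 0.099 in males and from -0.201 to 0.301 in females. The part of the score in these differences was not tested.

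The wider machinery was read from lists of related genes. Of 18 cohesin loaders, releasers and variant subunits, 14 were tested against the deletion in each tissue and 0 were called, with medians of 0.13 in cortex, -0.10 in striatum and -0.07 in cerebellum. The lowest p among them belonged to Stag3, a meiotic cohesin subunit, in cerebellum (0.34 ± 0.15, edgeR unadjusted p = 0.0405, which did not pass after adjustment). Of 10 partners of CTCF and boundary proteins, 8 were tested and 0 were called. Zfp143, which binds promoters at loop anchors, had the lowest p in each tissue, at -0.15 ± 0.09, -0.22 ± 0.10 and -0.22 ± 0.14 (edgeR unadjusted p = 0.129, 0.0426 and 0.140). Of the 8 other SP family factors, 7, 7 and 6 were tested in cortex, striatum and cerebellum and 0 were called, with medians of 0.44, 0.07 and -0.11, and Sp7, known from bone, stood at 0.98 ± 0.29 in cortex (unadjusted p = 0.00438, edgeR adjusted p = 0.965). In cerebellum Sp6 (-0.44 ± 0.19) and Sp2 (-0.33 ± 0.14) had unadjusted p of 0.0290 and 0.0348. Condensin subunits gave 0 calls, with medians of 0.03, -0.05 and -0.07. Of the 7 genes whose promoters MAZ has been described to bind, among them Myc, Grin1 and Vegfa, 7, 6 and 6 were tested and gave medians of 0.01, 0.08 and 0.07 and 0 calls. Within that list Grin1, the obligate NMDA receptor subunit, had the lowest p in striatum (-0.14 ± 0.09, unadjusted p = 0.143).

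The same lists split by tissue in wild-type mice. Of 16 cohesin regulators tested between cerebellum and cortex, 6 were called higher and 2 lower, beside 24.2 and 24.7% of all genes. The meiotic kleisin Rec8 rose most (3.61). The cohesin deacetylase Hdac8 (1.12), the loader Nipbl (0.94) and the subunit Stag2 (0.94) rose with the ring members, and Cdca5, a protector of cohesion in dividing cells, fell by 1.43 in log2 fold change. Of 10 condensin subunits, 4 were higher and 2 lower, with Smc4 at 0.95, Ncapd2 at 0.85, Ncaph at -0.68 and Ncapg at -1.38. Of the 8 other SP factors, Sp5 (3.64), Sp6 (1.88), Sp4 (1.09) and Sp2 (0.56) rose, and Sp8 and Sp9, factors of forebrain interneuron development, fell by 5.23 and 5.87. Of the 7 genes described as bound by MAZ, Vegfa rose (0.44) while Myc (-0.98), Grin1 (-0.44), Hras (-1.04), Pnmt (-4.10) and Htr1a (-3.15) fell from cortex to cerebellum. Each of these values passed in edgeR at an adjusted p under 0.05. A relation of these genes to the level of Maz was not tested.

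The genes whose log2 CPM ran most like that of Maz were found by Pearson correlation. Over all 48 libraries, which include the genotype difference, 15 of the 20 most alike genes lay in the interval. Outside the span of the interval genes listed here came Slx1b (r = 0.945), Cd2bp2 (0.899), Sgf29 (0.855) and Tbc1d10b (0.825). These lie on chromosome 7 within 349 kb of Maz, and Pyroxd2 on chromosome 19 came next (0.766). Slx1b ranked 1 in the whole comparison, above every interval gene. The ends of the deletion were not mapped here, and whether the chromosome 7 genes are themselves deleted was not tested. Over the 24 wild-type libraries, which share 8 animals and 3 tissues, the 5 most alike of 15047 genes outside the interval were Zfp653 (0.976), Anp32a (0.971), Maf1 (0.967), Rab5if (0.956) and Rfng (0.955), on chromosomes 9, 9, 15, 2 and 11. Of the other 7 genes, Smc1a was most like Maz in wild type (r = 0.677), and Rad21 and Sp1 had r of -0.145 and -0.153. These values pool the 3 tissues and so include the differences between them. Within cortex, striatum and cerebellum (deviations from the genotype means), Maz and Smc1a had r of 0.016, -0.010 and 0.735. In the same order, r with Maz was -0.921, -0.887 and -0.156 for Rad21, and -0.961, -0.872 and -0.247 for Sp1.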

How the data were processed

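RNA was sequenced from 48 stranded mRNA libraries, 1 per tissue of 16 mice. Raw gene-level counts were deposited by the authors as a single table, without normalisation. The submitters' processing notes list STAR 2.4.2a, FastQC 0.10.1, SAMtools and Picard, and name GRCm38 and mm8 with no role. How reads were counted, and whether by strand, is not given in the sources used here. Thus reads of Ctcf with Agrp and Gm5914, and of Patz1 with Gm11944 and Gm12592, which overlap, may have been shared. The 92 spike-ins (0.0614 to 1.09% of counts) were left out. GENCODE vM21 gave symbols for 46488 of 47069 genes.

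Deletion was compared with wild type in each tissue by edgeR 4.0.16 (R 4.3.3) with TMM scaling, its filter on low counts, a robust quasi-likelihood fit with sex as a term, and Benjamini-Hochberg adjustment over all genes tested. All 8 members passed the filter in each tissue. Calls are at adjusted p under 0.05. Single-library log2 CPM used a prior count of 2. The SE is the fold change over the root of F. Tissues were compared over the 24 wild-type libraries, and effects between tissues over all 48. The animal number pairs tissues of 1 mouse in the labels: deviations of the same animal correlated at medians of 0.440, 0.495 and 0.256, and those of other animals at -0.071, -0.013 and -0.047. Single values were tested by 2-sided exact permutation over 12870 splits. Alternatives were DESeq2 1.42.0, other scaling (RLE), no filter, no sex term, 1 sex alone, marker covariates, an animal block and leaving out each animal. Of these, the length score covariate, the deletion animals' tissue comparisons, the tissue comparisons without forebrain libraries of mixed markers and the fit without 2 striatal libraries rich in choroid plexus markers were added after the data were seen. The scripts were tested on simulated data.

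The members and the gene lists were chosen with earlier results of these data known. Named were the 8 members, listed genes that were called (examples) or else those of lowest p in their list, and the 5 genes outside the interval most correlated with Maz. Intervals cover the spread between these animals.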

Additional observations from a re-analysis of the deposited data

Results flagged for a closer look

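Among 48 groups of 8 libraries, 3 held a library whose gap to its nearest neighbour was large for the range of its group. Chance marks about 1 in 20 groups. Patz1 in deletion cerebellum was lowest in the library of animal D809, at 27.5 CPM, with the next at 36.3 CPM (a gap of 0.70 of the range). Smc3 was lowest in the same library, at 39.6 CPM against 66.5 CPM for the next (0.562 of the range). That library held the lowest cerebellar and the highest oligodendrocyte markers of its tissue, and their part in these levels was not tested. Vezf1 in wild-type cortex was lowest in animal W808, at 23.7 CPM against 30.3 CPM (0.579 of the range).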

How the results depend on the processing

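Maz stayed called lower in every tissue under each alternative that kept both sexes: -1.21 to -1.11 in cortex, -1.08 to -0.91 in striatum and -1.14 to -1.01 in cerebellum when 1 animal was left out. In males alone it was -1.08, -0.96 and -0.95, and in females alone -1.24, -1.08 and -1.20, without an adjusted p under 0.05. In cerebellum its unadjusted p in edgeR was 0.00122 in males and 3.67e-04 in females. The single-sex fits hold fewer samples and called 2, 4 and 1 genes (males) and 6, 1 and 1 genes (females), with 0 members. In striatum the 48-library fit called 36 genes and DESeq2 42, against 22. The replicate block moved striatum versus cortex to 5356 genes and 5 members; without the block the 2 members called ran from 1 to 3 when 1 animal was left out; in the other paired comparisons it moved no count by over 1.5 times. Against the interval, Maz was at -0.18 in cortex and -0.20 in cerebellum without overlapping genes (exact permutation adjusted p = 0.00839 and 0.143), and at -0.058 in striatum and -0.0056 in cerebellum against the median. Estimates near 0 changed sign: with the length score, Ctcf -0.046, Patz1 -0.0059 and Rad21 -0.12 in cortex; with striatal markers, Patz1 -0.021 in cortex and Vezf1 -0.014 in striatum; in males, Rad21 -0.012 in cortex and Vezf1 -0.099 in striatum; without the 2 choroid-rich libraries, Vezf1 -0.020; in deletion animals, Ctcf -0.085 (striatum versus cortex) and Patz1 -0.036 (cerebellum versus striatum); with RLE, the sex differences of Smc1a -0.0032 and Vezf1 -0.0038 in cortex; with no filter, Sp1 0.0023 (cerebellum minus striatum). Leaving out 1 animal gave cortex Ctcf -0.023 to 0.10, Patz1 -0.015 to 0.039 and Rad21 -0.065 to 0.15; striatum Patz1 -0.057 to 0.0052, Rad21 -0.18 to 0.0071 and Vezf1 -0.069 to 0.070; cerebellum Smc3 -0.15 to 0.0037, Sp1 -0.25 to 0.017 and Vezf1 -0.10 to 0.015; and striatum versus cortex Ctcf -0.0046 to 0.099 and Smc1a -0.048 to 0.0085. The causes were not tested. Each member had at least 386 counts per library.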
